A study of Mus musculus with 15 samples.

Results

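The respiratory chain of mouse hearts was examined through the nuclear genes of its subunits after 4, 8 and 11 days of isoproterenol. Genes were taken by symbol when the name began as for NADH dehydrogenase subunits (Nduf followed by a, b, c, s or v and a number), succinate dehydrogenase subunits a to d, Uqcr, Cox4 to Cox8 or Atp5. Genes named with -ps were left out, and a mean of at least 50 expected counts over the 15 samples was required. Of the 55401 genes in the files, 102 matched by name and 82 were kept. The names of 13 of the others held -ps, and 7 others, among them Cox8c and Cox7b2, had means of at most 7.67 counts. Ndufb1-ps, annotated as a bidirectional promoter lncRNA, was left out by its name although its mean was 2953 counts. Of the 82 genes, 81 were annotated as protein coding in GENCODE M21. Ndufb4c was annotated as a processed pseudogene. It is close in sequence to Ndufb4, so the split of reads between both is uncertain. The rule itself uses names and a minimum level and no expression change, but it was set with earlier results of these data known.

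All groups were male C57BL6 mice aged 12 weeks. The treated groups differed in how long isoproterenol was dosed (50 mg/kg/day, subcutaneous route), and the controls had saline. Isoproterenol is a β-adrenergic agonist that drives the rate and force of the heartbeat and is used to bring about cardiac fibrosis. Total RNA of the heart was sequenced in 4 mice treated for 4 days, 3 treated for 8 days, 4 treated for 11 days and 4 given saline. The labels give no day for the saline hearts. The same 4 saline hearts served all 3 comparisons with saline, so these comparisons are not independent. Hearts carry the letter A to D that the labels give them, and p-values measure the spread between these samples. Levels are CPM, counts relative to a TMM-scaled library total, and levels of different genes are compared only as FPKM, which divides by length. Genes were tested with the quasi-likelihood method of edgeR, and p-values were adjusted after Benjamini and Hochberg over 26862 genes, with 0.05 as the threshold.

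The respiratory chain sits in the inner mitochondrial membrane and passes electrons to oxygen. Complex I accepts them from NADH and complex II from succinate, complex III hands them to cytochrome c, and complex IV, cytochrome c oxidase, reduces oxygen. Complexes I, III and IV pump protons, and ATP synthase, complex V, uses the proton gradient to make ATP. A few core subunits are encoded by the mitochondrial genome, and all other subunits by nuclear genes. Heart muscle is packed with mitochondria and meets nearly all of its demand for ATP this way. In bulk tissue, fewer cells of a type cannot be told apart from less RNA per cell.

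Cytochrome c oxidase has subunits that come in a muscle form and a ubiquitous form. The muscle forms Cox6a2, Cox8b and Cox7a1 are made in heart and skeletal muscle, and Cox6a1, Cox8a and Cox7a2 are their ubiquitous counterparts. The bases before the start of 4 of these genes are shown because the results below turn on how the muscle and ubiquitous forms differed. They are the 250 bases upstream of the RefSeq start in GRCm38.p6, written 5′ to 3′ on the strand of the gene. Cox8b lies at chr7:140900447-140900696 (minus strand), Cox7a1 at chr7:30183921-30184170 (plus strand), Cox8a at chr19:7217617-7217866 (minus strand) and Cox6a1 at chr5:115348959-115349208 (minus strand). Capitals mark letters that match a motif of the transcription factor NRF1, which acts on many respiratory chain genes.
Cox8b: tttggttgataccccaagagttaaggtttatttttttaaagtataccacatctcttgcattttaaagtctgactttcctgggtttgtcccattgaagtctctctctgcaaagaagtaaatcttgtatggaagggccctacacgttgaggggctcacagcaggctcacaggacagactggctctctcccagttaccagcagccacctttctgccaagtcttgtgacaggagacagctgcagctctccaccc
Cox7a1: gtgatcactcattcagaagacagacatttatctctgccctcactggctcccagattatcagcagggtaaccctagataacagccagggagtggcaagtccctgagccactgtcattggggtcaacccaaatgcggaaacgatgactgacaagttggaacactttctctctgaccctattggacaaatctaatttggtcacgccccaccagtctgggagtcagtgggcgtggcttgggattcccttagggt
Cox8a: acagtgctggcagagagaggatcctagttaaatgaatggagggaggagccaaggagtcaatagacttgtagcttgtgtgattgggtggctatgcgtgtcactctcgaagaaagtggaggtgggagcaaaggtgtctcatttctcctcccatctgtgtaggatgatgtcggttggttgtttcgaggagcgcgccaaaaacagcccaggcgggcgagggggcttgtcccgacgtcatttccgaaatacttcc
Cox6a1: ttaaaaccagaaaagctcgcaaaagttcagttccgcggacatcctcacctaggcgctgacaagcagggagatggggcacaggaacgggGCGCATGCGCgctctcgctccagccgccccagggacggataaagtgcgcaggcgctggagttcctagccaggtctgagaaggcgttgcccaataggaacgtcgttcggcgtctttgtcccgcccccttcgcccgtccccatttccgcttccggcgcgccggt

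Motifs of 4 factors known for mitochondrial genes were searched on both strands in windows from 250 bases before to 50 bases after the start. RefSeq promoters were matched for 66 of the 82 genes (71 windows). The NRF1 letters GCGCATGC were in 10 of the 71 windows, which is 14.1%, against 2.71% of all 32851 windows in the table. The YY1 letters AAGATGGC were in 10 windows too (14.1%, against 2.75% of all windows). The ETS letters CCGGAAGT, read by GABPA, were in 5 windows (7.04%, against 3.89%), and the estrogen-related receptor letters TCAAGGTCA in 2 (2.82%, against 0.423%). Overlapping matches of the same motif on both strands were counted once per window. At least 1 of the 4 motifs was in 26 windows (36.6%, against 9.25% of all). In the stretches shown, Cox6a1 held the NRF1 letters on both strands from 162 bases before its start, and none of the 4 motifs was found in Cox8b, Cox7a1 or Cox8a. The longer window of Cox8a, which runs past its start, is among the 5 with the ETS letters. Those of Cox8b and Cox7a1, and that of the ubiquitous form Cox7a2, whose stretch is not shown, held none of the 4 motifs. Cox6a2 had no promoter entry and was not searched. These matches are descriptions of letters and were not tied to the expression values.

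Among saline hearts, Atp5b, the catalytic β subunit of ATP synthase, had the highest level per length, at 1108 ± 111 FPKM (SD, n = 4). Cox7a1 followed at 961 ± 63.0 FPKM and Cox4i1, the common form of subunit IV of cytochrome c oxidase, at 757 ± 49.7 FPKM. Muscle forms dominated their pairs in this tissue, which is known of heart. Cox6a2 had 637 ± 108 FPKM and Cox6a1 38.7 ± 2.52 FPKM. The least abundant members were Cox4i2 at 2.95 ± 0.668 FPKM and Ndufa4l2 at 3.73 ± 1.21 FPKM, both isoforms that are known from lung or from low oxygen. Summed over the 82 genes, the share of a library's counts ran from 0.947 to 1.64%, with 8-day A the lowest.

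Total expected counts per library ran from 25.4 M to 117.8 M, and 47.5 to 58.4% of them fell on genes of the mitochondrial genome. Most of these were mitochondrial rRNA, at 39.7 to 50.4% of all counts. In 8-day A, 15.8% of the counts came from CT010467.1 and Lars2. The mean fragment length implied by the effective lengths was 197 bases in 8-day A and 181 bases in saline C, against 161 to 170 bases in the other 13 libraries. The median effective length of the 82 genes was 509.7 bases, against 2318 bases over genes with more than 1 CPM. The saline group was itself spread. The mean log2 difference of the 82 genes from their saline means was 0.11 in saline A, -0.21 in saline B, -0.14 in saline C and 0.24 in saline D. Saline A and D lay above saline B and C in all 5 complexes.

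After 4 days of isoproterenol 10 of the 82 subunit genes were significantly lower than in saline hearts and 0 were higher, against 3.40% of all genes tested that were lower and 6.05% that were higher. The log2 fold change was below 0 for 78 of the 82 genes, against 13229 of all 26862 genes tested. All of these values come from the same hearts, so the signs of the genes are not independent of each other. The median of the 82 was -0.23, against 0.01 over all genes tested. None of the 10 belonged to complexes III or V. The 10 genes were Cox6a2, Cox8b and Cox6c of complex IV, Ndufa1, Ndufv1, Ndufs1, Ndufa3 and Ndufb2 of complex I, the copy Ndufb4c, and Sdha of complex II. Unadjusted p was under 0.05 for 34 of the 82, against 5959 of all 26862 genes tested. Ndufs1, Ndufb4, Ndufv3, Cox6c, Cox7c and Atp5b are described singly although they were chosen after their values were seen.

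**Figure D1:**
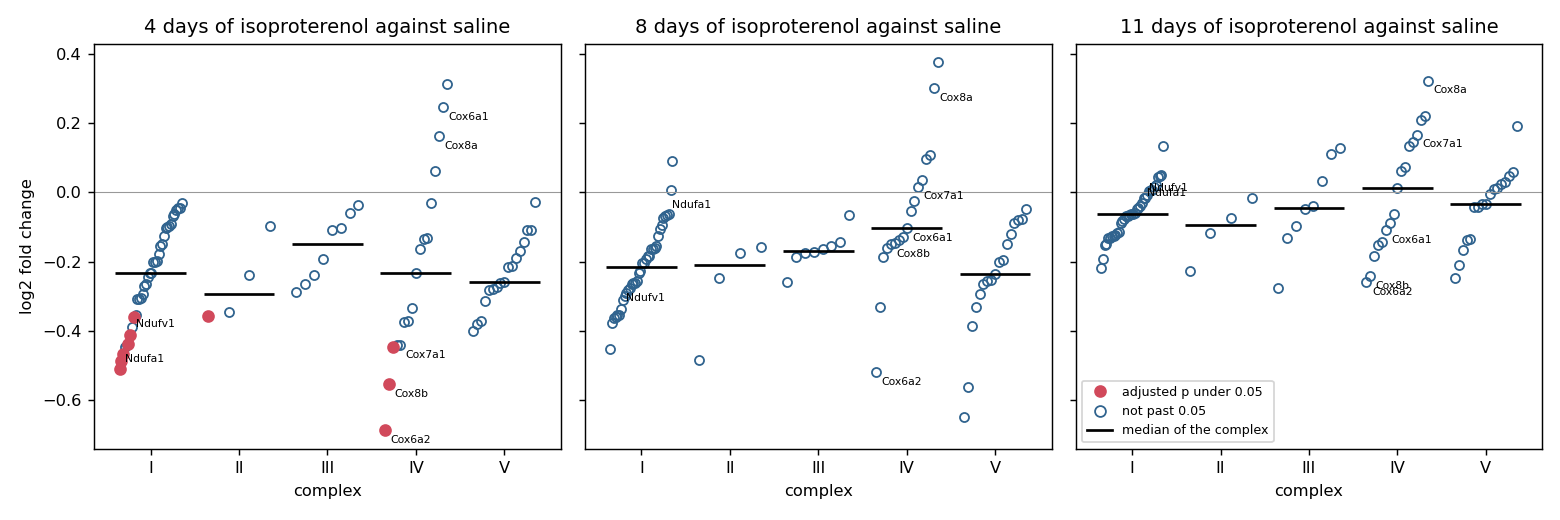
Log2 fold change of each of the 82 genes (points) against saline, by complex, after 4, 8 and 11 days of isoproterenol. Filled red points passed the adjusted p threshold and black bars are medians. At 4 days 10 genes are red, all below 0, and the medians of the complexes lie between -0.29 and -0.15. At 11 days the medians lie between -0.10 and 0.01 and no point is red.

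The 4-day counts depended on scaling and on single libraries. With library size alone in place of TMM, 1 gene was lower and 2 were higher, the median was -0.02 with 45 values below 0 and 37 above, and the median over all genes was 0.21. Of the 10 calls, only that of Cox6a2 was kept with library size alone. The number lower was 2 without 4-day A or 4-day C, 3 without saline A or saline D, 4 without 4-day D, 20 without 4-day B and 25 without saline B. DESeq2 called 24 genes lower and limma voom with quality weights 31. Counts over all genes are not given here for these methods.

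Markers of some other cells moved at the same time. No endothelial (5 genes), smooth muscle and pericyte (4 genes) or adipocyte marker (3 genes) passed at 4 days. Summed fibroblast markers (7 genes) ran from 1026 to 4036 CPM in 4-day hearts, against 319 to 395 CPM in saline hearts. Summed macrophage markers (6 genes) ran from 163 to 285 CPM at 4 days and from 78.3 to 129 CPM in saline. Summed cardiomyocyte markers (10 genes) ran from 68310 to 77761 CPM at 4 days and from 71687 to 80075 CPM in saline, and 4 of the 10, Myl2, Myl3, Mb and Tnni3, were significantly lower. Of 3 erythroid markers 2, Alas2 and Hbb-bs, were significantly lower at 4 days, and the median of the summed level was 50.2 CPM at 4 days and 191.6 CPM in saline. Over all genes tested, 3.40% were lower and 6.05% were higher at 4 days. No marker of the fibroblast, macrophage, cardiomyocyte and erythroid lists was at 0 in all samples of a group. Their part in the subunit result was not tested.

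Complex IV held the genes with the largest falls. Cox6a2, the muscle form of subunit VIa, had 204, 244, 193 and 206 CPM in 4-day A to D, against 399, 272, 276 and 420.4 CPM in saline A to D. Every 4-day heart was below every saline heart, and the log2 fold change was -0.69 ± 0.14 (SE, adjusted p = 0.00784 by edgeR). It was below the threshold in all 8 fits that left out a library and in all 12 other alternatives, with adjusted p up to 0.0309. Only 4 of the 82 genes had every 4-day heart below every saline heart, against 5.65% of all genes tested. They were Cox6a2, Cox8b, Ndufs1 and Ndufv1.

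Cox8b, the muscle form of subunit VIII, had 44.4, 53.7, 45.7 and 49.5 CPM in 4-day hearts, against 78.0, 55.9, 67.3 and 83.2 CPM in saline hearts. Its log2 fold change was -0.55 ± 0.12 (adjusted p = 0.00853 by edgeR), and the groups did not overlap. It passed in all 8 fits that left out a library, and with library size alone its adjusted p was 0.0576. Cox7a1, the muscle form of subunit VIIa, had 142, 201, 149 and 179.8 CPM at 4 days, against 236, 203, 194 and 283 CPM in saline. Its log2 fold change of -0.44 ± 0.13 did not pass (adjusted p = 0.0576 by edgeR), and 4-day B was above saline C.

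The ubiquitous partners gave other values. Cox6a1 had 19.9, 18.6, 16.1 and 22.4 CPM in 4-day hearts, against 17.0, 14.3, 14.4 and 19.5 CPM in saline hearts. Its log2 fold change was 0.24 ± 0.12 (adjusted p = 0.248 by edgeR), and the groups overlapped. Cox8a had a log2 fold change of 0.16 ± 0.10 (adjusted p = 0.367), and Cox7a2 of -0.37 ± 0.14 (adjusted p = 0.116). Cox6c, a subunit with no tissue form in this set, had a log2 fold change of -0.45 ± 0.13 (adjusted p = 0.0452 by edgeR), and this was lost without any of 6 of the 8 libraries, all but saline B and 4-day B, with adjusted p up to 0.128.

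**Figure D2:**
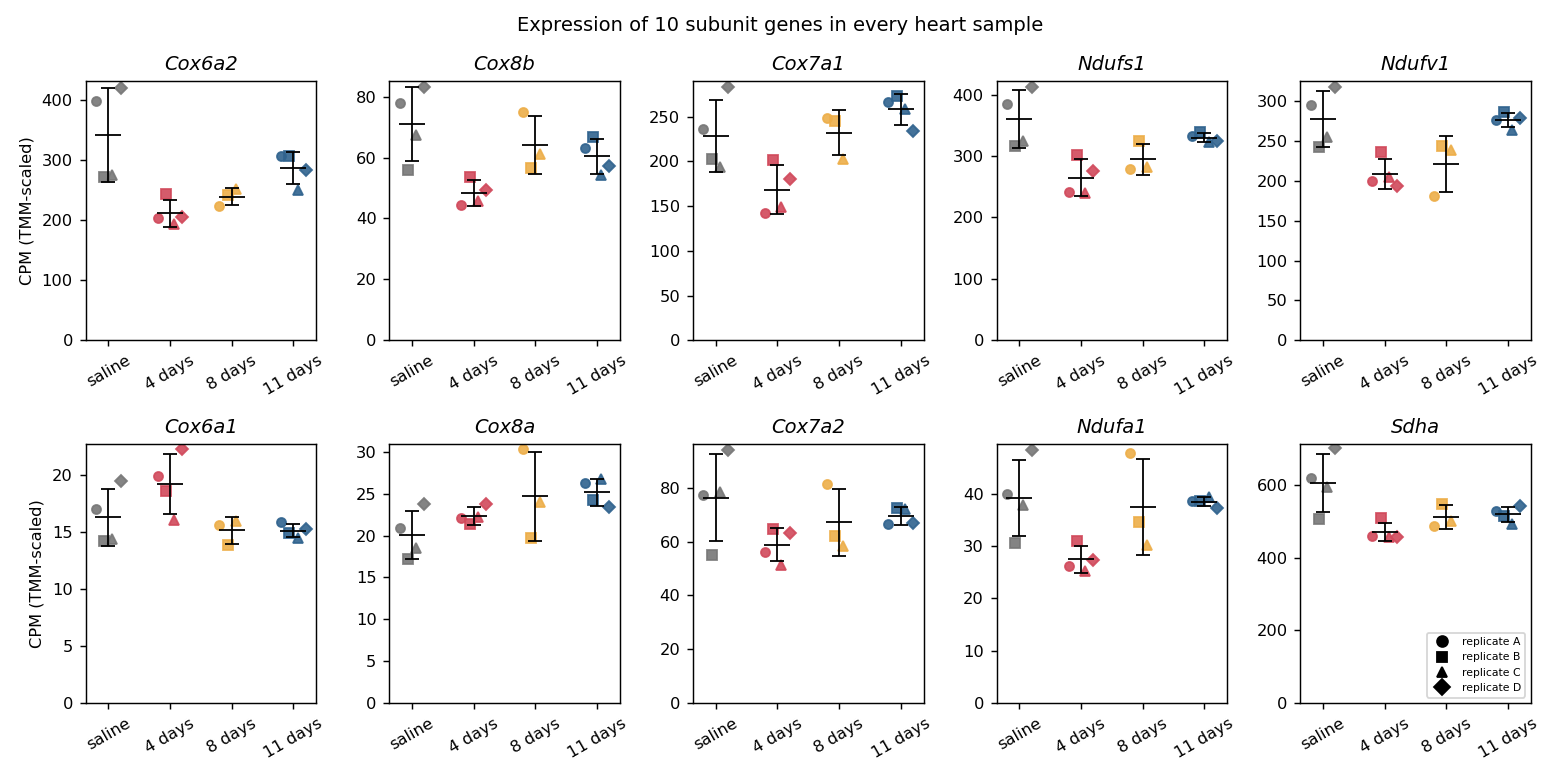
TMM-scaled CPM of 10 subunit genes in every heart (marker shapes give the replicate letter), with the mean and SD of each group as bars. In Cox6a2 the 4-day hearts lie between 193 and 244 CPM, below the saline hearts at 272 to 420.4 CPM, while in Cox6a1 both groups overlap.

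Ratios within a library need no scaling between libraries. The log2 ratio of Cox6a1 over Cox6a2 FPKM was -3.02, -3.37, -3.24 and -2.86 in 4-day A to D, against -4.21, -3.92, -3.90 and -4.09 in saline A to D. Every 4-day heart was above every saline heart. The mean rose by 0.91 at 4 days, so that the ubiquitous form made up 10.3% of both forms in 4-day hearts and 5.77% in saline hearts, as geometric means. At 8 days the log2 ratio was -3.47, -3.79 and -3.64, again above all saline hearts. At 11 days it lay between -4.02 and -3.77 and overlapped saline.

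The Cox8a over Cox8b ratio stayed apart from saline at all 3 times. Its log2 value lay between -2.29 and -1.97 in 4-day hearts, between -2.49 and -2.30 in 8-day hearts and between -2.45 and -1.997 in 11-day hearts, against -2.88 to -2.67 in saline hearts. All 11 treated hearts were above all 4 saline hearts. The mean differences from saline were 0.72, 0.41 and 0.56 at 4, 8 and 11 days. The third pair had the same sign at 4 days and the other sign later. Cox7a2 over Cox7a1 lay between -2.67 and -2.38 at 4 days and between -2.96 and -2.42 in saline, a mean difference of 0.11. Its mean difference from saline was -0.23 at 8 days and -0.30 at 11 days. For Ndufa4l2 over Ndufa4 the mean differences were 0.52, 0.55 and 0.27 at 4, 8 and 11 days. For Cox4i2 over Cox4i1 they were 0.22, 0.12 and 0.01, and both of these ratios overlapped saline at all 3 times. The ratios are given as descriptions with no test, and each kept its sign when expected counts replaced FPKM.

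**Figure D3:**
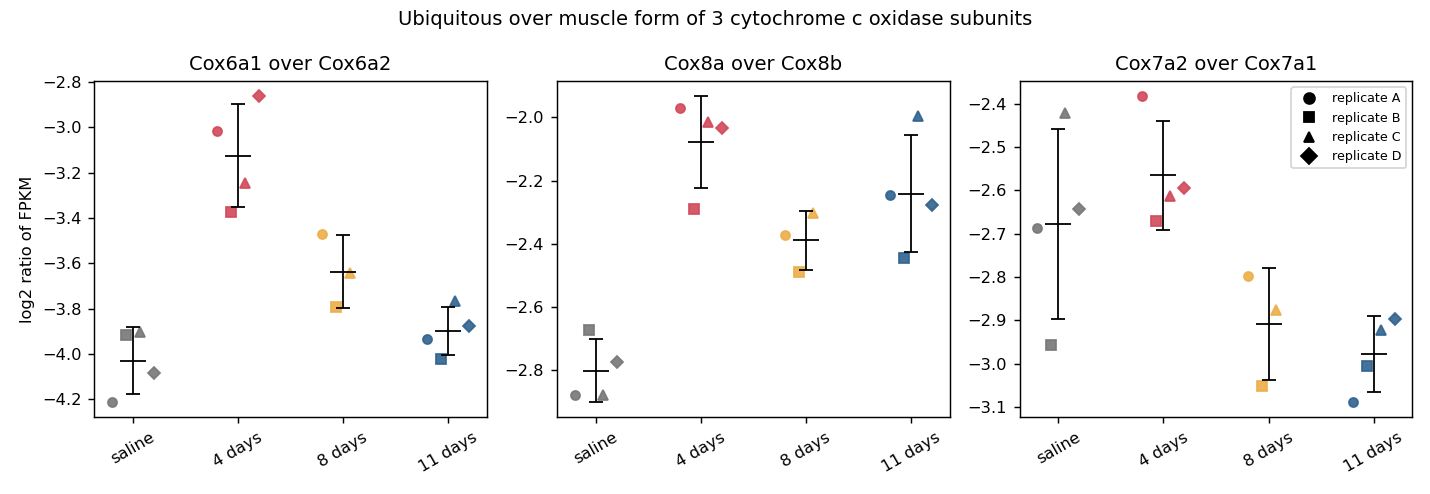
Log2 ratio of FPKM of the ubiquitous over the muscle form for 3 subunits of cytochrome c oxidase in every heart, with group means and SD as bars. For Cox6a1 over Cox6a2 the 4-day and 8-day hearts lie above saline, and for Cox8a over Cox8b all 11 treated hearts lie above the 4 saline hearts.

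Complex I reduces ubiquinone with electrons of NADH. Its 36 genes had a median log2 fold change of -0.23 at 4 days, and all 36 values were below 0. Ndufa4 and Ndufa4l2, whose names begin as for this complex, were counted in complex IV. Ndufa4l2 had the highest 4-day value of the 82 genes, 0.31, which did not pass, and Ndufa4 had -0.23. The N module at the tip of the matrix arm oxidizes NADH, and 2 of its 10 genes were lower. Ndufv1, which carries the NADH and flavin site, had 199.7, 237, 205 and 193 CPM in 4-day hearts, against 296, 243, 255 and 319 CPM in saline hearts (log2 fold change -0.41 ± 0.10, adjusted p = 0.0229 by edgeR). Ndufs1, the largest subunit with iron-sulfur clusters, had 241, 302, 240.3 and 275 CPM at 4 days, against 385, 316, 325 and 413 CPM in saline. Its log2 fold change was -0.44 ± 0.11 (adjusted p = 0.0234 by edgeR). Neither gene overlapped between groups. The Ndufv1 call was lost without saline A, saline D, 4-day A, 4-day C or 4-day D (adjusted p up to 0.0774) and with effective length offsets, and the Ndufs1 call without saline A, saline D, 4-day A or 4-day C (up to 0.0827).

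The Q module passes electrons to ubiquinone. None of its 5 genes passed, and their median was -0.15. In the membrane arm, which pumps protons, 3 of 19 genes were lower. Ndufa1, an accessory subunit on the X chromosome, had 26.3, 31.1, 25.2 and 27.4 CPM in 4-day hearts, against 40.0, 30.6, 37.9 and 48.4 CPM in saline hearts. Its log2 fold change was -0.51 ± 0.12 (adjusted p = 0.0166 by edgeR), with 4-day B just above saline B, and the call was lost without 4-day A or 4-day C (adjusted p up to 0.0537). The accessory subunits Ndufa3 and Ndufb2 had log2 fold changes of -0.49 ± 0.14 and -0.36 ± 0.10. Ndufb4 had -0.44 ± 0.14 (adjusted p = 0.0652 by edgeR) and its copy Ndufb4c -0.47 ± 0.12 (adjusted p = 0.0254). Calls for Ndufa3, Ndufb2, Ndufb4c and Sdha were kept only without saline B or without 4-day B among the 8 fits that left out a library, and the largest adjusted p was 0.142. Those of Ndufb2 and Sdha were also lost with effective length offsets.

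In complex II, which links the citric acid cycle to the chain, 1 of 4 genes passed at 4 days. Sdha, its flavoprotein, had 460.2, 509.8, 457 and 459 CPM in 4-day hearts, against 620.4, 508, 595 and 702 CPM in saline hearts (log2 fold change -0.36 ± 0.10, adjusted p = 0.0423 by edgeR). None of the 8 genes of complex III passed. Their median was -0.15. Uqcrc1, a core protein of complex III, had log2 fold changes of -0.24 ± 0.09 at 4 days and -0.28 ± 0.08 at 11 days (edgeR, adjusted p of 0.111 for the earlier time and 0.0817 for the later).

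None of the 17 genes of ATP synthase passed at 4 days, though all 17 values were below 0 and their median of -0.26 was close to that of complex I. Atp5b had 1384, 1579.6, 1339.6 and 1456 CPM in 4-day hearts, against 1833, 1503, 1679 and 1973 CPM in saline hearts (log2 fold change -0.27 ± 0.10, adjusted p = 0.129 by edgeR). Atp5o, the subunit that joins the peripheral stalk to the head, had -0.40 ± 0.13 (adjusted p = 0.0759), and Atp5c1, the γ subunit of the rotating shaft, -0.37 ± 0.12 (adjusted p = 0.0731). Atp5g1, Atp5g2 and Atp5g3 encode the same mature c subunit of the rotor ring. Atp5g1 gave 51.4 ± 1.38% of their FPKM at 4 days and 51.9 ± 2.03% in saline, Atp5g3 gave 47.2 ± 1.24% at 4 days and 46.5 ± 1.73% in saline, and Atp5g2 1.41 ± 0.260% at 4 days and 1.57 ± 0.346% in saline (SD, n = 4 each).

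**Figure D4:**
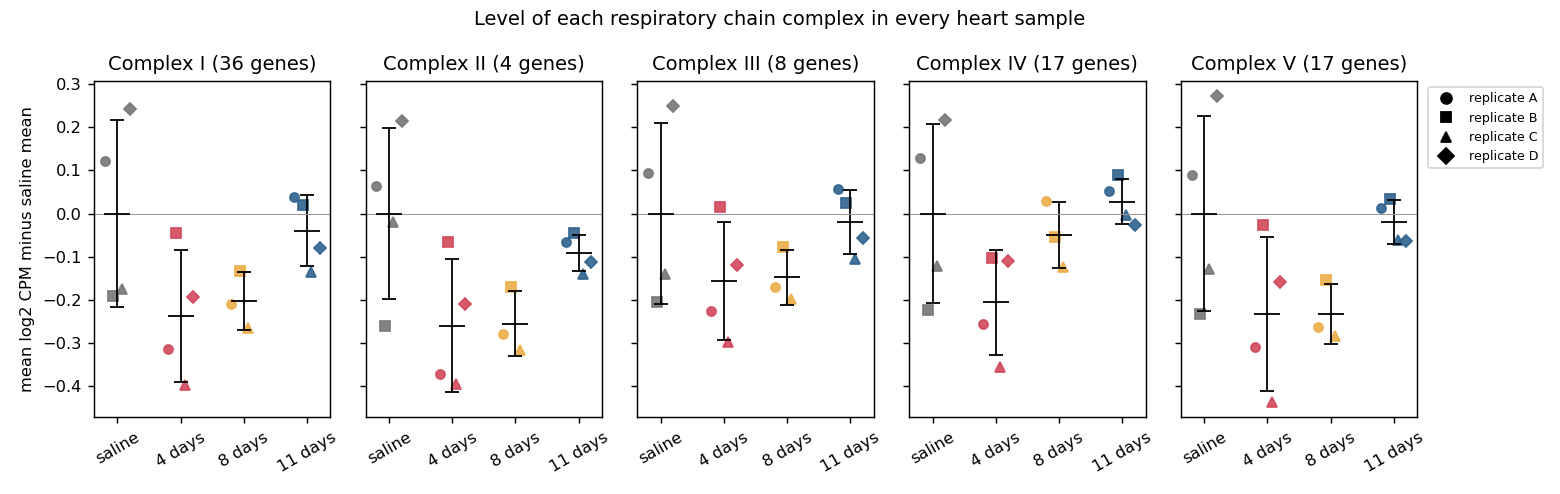
Mean over the genes of each complex of log2 CPM minus the saline mean of the gene, for every heart (marker shapes give the replicate letter), with group means and SD as bars. In all 5 complexes saline A and D lie above saline B and C, saline B lies within the range of the 4-day hearts, and the 11-day hearts lie between -0.14 and 0.09.

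By edgeR's test, the 8-day hearts had 0 of the 82 genes higher and 0 lower than saline, against 1.07% and 1.20% of all genes tested. Unadjusted p was under 0.05 for 19 of them, against 3494 of all 26862 genes tested. DESeq2 called 6 of the 82 lower and limma voom 3. The log2 fold change was below 0 for 74 genes (13833 of all 26862 genes tested), with a median of -0.18 against -0.01 over all genes. With a length trend removed the median was -0.09. Every 8-day heart was below every saline heart for 11 genes, against 5.97% of all genes tested. The lowest value was that of Atp5g2, at 4.42, 6.43 and 7.18 CPM in 8-day A to C against 8.23, 7.91, 8.36 and 13.4 CPM in saline A to D (log2 fold change -0.65 ± 0.20, adjusted p = 0.127 by edgeR). Sdhc, a membrane anchor of complex II, had 89.6, 122 and 109.7 CPM at 8 days against 157, 127, 139 and 173 CPM in saline (adjusted p = 0.0674). Without saline B, 5 genes passed as lower at 8 days, and without saline C 1 did.

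Cox6a2 remained without overlap at 8 days, at 224, 243 and 252 CPM, but its log2 fold change of -0.52 ± 0.15 did not pass (adjusted p = 0.104 by edgeR). Cox7a1 and Cox8b stood near saline, with log2 fold changes of 0.02 ± 0.13 and -0.15 ± 0.14. Atp5e, the ε subunit, had 47.0 CPM in 8-day A and 84.8 and 86.0 CPM in 8-day B and C.

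By the same test with edgeR, the 11-day hearts had 0 of the 82 genes higher and 0 lower, against 1.80% and 1.95% of all genes tested. Unadjusted p was under 0.05 for 9, against 4617 of all 26862 genes tested. DESeq2 called 1 of the 82 higher and 2 lower. The median was -0.05 against -0.01 over all genes, with 54 values below 0 (13824 of all 26862 genes tested). With library size alone the median was 0.04 and 54 values were above 0. No gene had every 11-day heart below every saline heart, against 4.77% of all genes tested. Without saline B 3 genes were lower, and without saline D 2 were higher. Cox8a had the highest log2 fold change, 0.32 ± 0.10 (adjusted p = 0.0874 by edgeR), with 26.3, 24.2, 26.7 and 23.4 CPM in 11-day hearts against 20.8, 17.2, 18.5 and 23.8 CPM in saline hearts. Cox6a2 had -0.26 ± 0.14 (adjusted p = 0.36) and Cox7a1 0.17 ± 0.11 (adjusted p = 0.492).

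Tested directly against 4 days, 21 of the 82 genes were higher at 11 days and 1 was lower. Among all genes tested 3.75% were higher and 6.55% lower. The median of the 82 was 0.19, against -0.01 over all genes. These 4-day hearts are the same as those set against saline. The genes that were higher comprised 10 of complex I, 6 of complex IV and 5 of complex V, and none of complexes II and III. In 8 of the 21, Ndufv1, Ndufa1, Ndufb11, Cox4i1, Cox6a2, Cox6c, Cox7a1 and Cox7c, the call held in all 8 fits that left out a library and in all 12 other alternatives. The number higher was 9 without 4-day A, 10 without 4-day C, 8 without 11-day B, 12 without 11-day A, 14 without 4-day D or 11-day D, and 40 without 4-day B. It was 10 with library size alone and 33 with limma voom. Over all genes tested 1006 were higher, and 317 with library size alone. In the same comparison 5 of 10 cardiomyocyte markers were higher and 1 lower (median log2 fold change 0.23). Of the fibroblast markers 4 of 7 were lower (median -0.68), and of the macrophage markers 5 of 6 (median -0.77). Of 4 smooth muscle and pericyte markers 1 was lower, and no endothelial, erythroid or adipocyte marker passed. Their part in the subunit result was not tested.

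Cox7a1 rose the most, with 266, 273, 259 and 234 CPM in 11-day hearts against 142, 201, 149 and 179.8 CPM in 4-day hearts (log2 fold change 0.61 ± 0.10, adjusted p = 0.00257 by edgeR). All 11-day hearts were above all 4-day hearts. Ndufa1 had 38.6, 38.7, 39.5 and 37.3 CPM at 11 days against 26.3, 31.1, 25.2 and 27.4 CPM at 4 days (0.48 ± 0.07, adjusted p = 0.00125). Cox6a2 was higher by 0.43 ± 0.09 (adjusted p = 0.00831 by edgeR) and Cox8b by 0.31 ± 0.08 (adjusted p = 0.0283). The Cox8b call was lost without 4-day A, 4-day C, 4-day D, 11-day A or 11-day B, with adjusted p up to 0.0982. Cox4i1 rose by 0.41 ± 0.08 (adjusted p = 0.00691) and the membrane arm subunit Ndufb11 by 0.36 ± 0.07 (adjusted p = 0.00724).

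The gene that was lower at 11 days was the ubiquitous form Cox6a1, at 15.9, 14.9, 14.5 and 15.2 CPM in 11-day hearts against 19.9, 18.6, 16.1 and 22.4 CPM in 4-day hearts. Its log2 fold change was -0.35 ± 0.09 (adjusted p = 0.0255 by edgeR), and the groups did not overlap. The call was lost without 4-day A, 4-day D, 11-day B, 11-day C or 11-day D (adjusted p up to 0.0792). In ATP synthase, Atp5o, Atp5c1 and Atp5e were higher by 0.36, 0.37 and 0.34 at 11 days, each lost without 4-day A or 11-day B, with adjusted p up to 0.0703. Atp5c1 and Atp5e were also lost without 4-day C.

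Other pairs of times gave few calls. The 8-day hearts had 0 of the 82 genes higher and 0 lower than the 4-day hearts by edgeR (0.0596% and 0.190% of all genes tested). At an unadjusted p under 0.05 there were 7 of the 82, against 3101 of all 26862 genes tested. DESeq2 called 2 of the 82 higher. Against 8 days, 1 gene was higher at 11 days and 0 lower (0.0596% and 0.0782% of all genes tested). It was Atp5g2, with 10.6, 9.72, 12.1 and 10.4 CPM in 11-day hearts against 4.42, 6.43 and 7.18 CPM in 8-day hearts (log2 fold change 0.84 ± 0.14, adjusted p = 0.0427 by edgeR). It was lost without any of the 11-day libraries, with adjusted p up to 0.0815. Over the 4 groups together, 14 of the 82 genes changed by the F test (13.0% of all genes tested). They were 6 of complex I, 2 of complex II, 5 of complex IV and 1 of complex V. Without 4-day A the number was 3 and without saline B it was 30.

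Transcript use shifted in Ndufv3, an accessory subunit of the N module known to be made in a short and a long form. The short transcript, Ndufv3-202, has 3 exons and 104 codons, and the long transcript, Ndufv3-201, has 4 exons and 468 codons. The long transcript took 9.99, 7.07, 8.00 and 8.28% of the expected count of Ndufv3 in 4-day A to D, against 4.65, 3.92, 5.26 and 3.34% in saline A to D. Every 4-day heart was above every saline heart. It took 5.21 to 7.88% at 8 days and 4.07 to 4.97% at 11 days. In Atp5c1 the main transcript took 92.6 ± 0.861% at 4 days and 93.5% in saline, a difference of the size of the SD. These shares are estimates of RSEM and were not tested.

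The mitochondrial genome encodes 13 subunits of the chain. By edgeR's test 0 of the 13 passed against saline at 4, 8 or 11 days. At an unadjusted p under 0.05 the counts were 4, 1 and 2, against 5959, 3494 and 4617 of all 26862 genes tested. The median log2 fold changes of the 13 were -0.25, 0.00 and 0.12. At 11 days against 4 days 5 of 13 were higher (3.75% of all genes tested), with a median of 0.35. The spread within groups differed between genes. mt-Nd4 had 7570.5 ± 456 CPM at 4 days and 8457 ± 1123 CPM in saline (SD). mt-Co3, a core subunit of cytochrome c oxidase, was widely spread. It had 155, 173, 218 and 318 CPM in 4-day hearts against 416, 181, 519 and 513 CPM in saline hearts (log2 fold change -0.91 ± 0.29, adjusted p = 0.0647 by edgeR). This was the lowest of the 13 values, and mt-Co3 had 407 ± 158 CPM in saline (SD).

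Electron transfer flavoprotein (Etfa, Etfb) and its dehydrogenase (Etfdh) carry electrons of fatty acid oxidation to ubiquinone. Etfdh had 146, 201, 142 and 172 CPM at 4 days, against 300.2, 226, 252 and 300.4 CPM in saline (log2 fold change -0.70 ± 0.13). All 3 were significantly lower at 4, 8 and 11 days, with log2 fold changes between -0.76 and -0.39. They belong to a list of 12 tested carriers and subunits outside the naming rule, of which 3 were lower and 1 higher at 4 days, 4 lower at 8 days and 3 lower at 11 days. The higher gene was Atpif1, the inhibitor of ATP synthase (0.55 ± 0.16 at 4 days, adjusted p = 0.0456 by edgeR). Over all genes tested 3.40% were lower and 6.05% higher at 4 days, 1.20% were lower at 8 days and 1.95% at 11 days. The medians of the 12 were -0.10, -0.17 and -0.17 at 4, 8 and 11 days. Those of the 82 subunit genes were -0.23, -0.18 and -0.05. Whether the fall of these genes differed from that of the subunits was not tested.

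Ubiquinone carries electrons from complexes I and II to complex III, and the genes of its synthesis were listed too. At 4 days 3 of the 13 were lower and 1 was higher, and at both 8 and 11 days 2 were lower. The shares over all genes were 3.40% lower and 6.05% higher at 4 days, and 1.20% and 1.95% lower at 8 and 11 days. The medians of the 13 were -0.16, -0.12 and -0.18 at 4, 8 and 11 days. Coq3, a methyltransferase of the pathway, and Coq10b, a ubiquinone-binding protein, were lower at all 3 times, Coq10b with 13.0, 13.6, 13.5 and 12.8 CPM in 11-day hearts against 21.1, 20.9, 21.9 and 18.5 CPM in saline hearts. Coq2 was lower at 4 days only among the 3 comparisons, and Coq8b, an atypical kinase of the pathway, was higher at 4 days (0.71 ± 0.12).

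**Figure D5:**
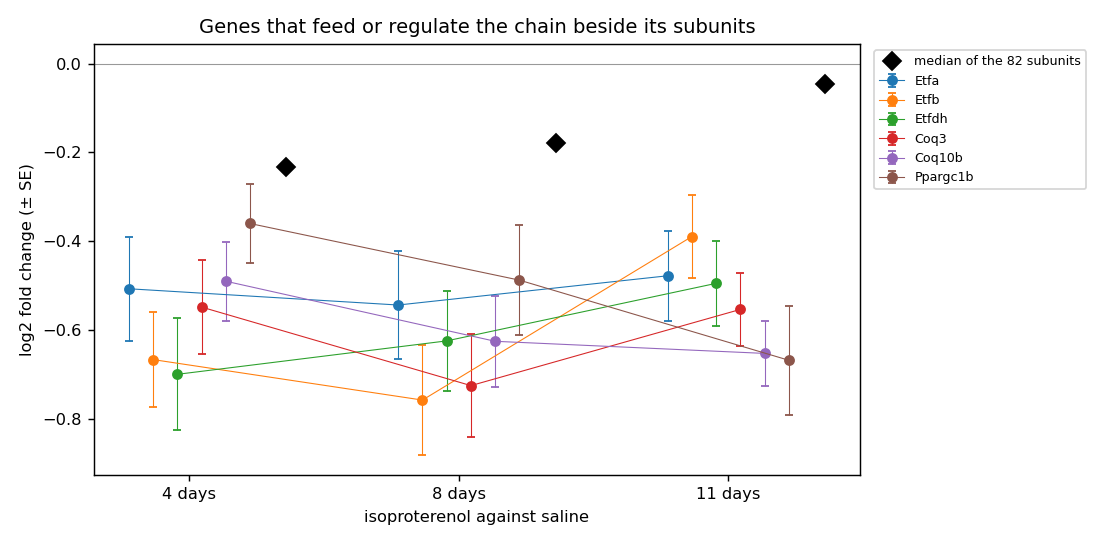
Log2 fold change with SE against saline of 6 genes that feed electrons to the chain, make ubiquinone or regulate mitochondrial genes, beside the median of the 82 subunit genes (black diamonds). Etfa, Etfb, Etfdh, Coq3 and Coq10b lie between -0.76 and -0.39 at all 3 times, while the subunit median is -0.23, -0.18 and -0.05. The genes named here were picked because they passed at all 3 times. The medians of their whole lists are -0.10, -0.17 and -0.17 (carriers and subunits outside the rule) and -0.16, -0.12 and -0.18 (ubiquinone synthesis).

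Assembly factors build the complexes without staying in them. At 4 days 0 of 16 factors of complex I, 0 of 4 of complex II, 0 of 6 of complex III and 1 of 22 of complex IV were lower and none was higher. The factor was Lrpprc, which stabilizes mitochondrial mRNA (-0.40, adjusted p = 0.0377 by edgeR). Of the 4 genes listed for complex V, Atpif1 was higher. The medians of these lists at 4 days lay between -0.12 and 0.00. Of 78 mitochondrial ribosomal protein genes 4 were lower and 0 higher at 4 days, with a median of -0.07. Of 84 cytosolic ribosomal protein genes 1 was lower and 1 higher, with a median of -0.05 at 4 days, and their median at 8 days was -0.18. For all of these lists, the shares over all genes tested at 4 days were 3.40% lower and 6.05% higher.

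Among 20 regulators of mitochondrial genes, Ppargc1b, a coactivator, was lower at 4 and 11 days, with log2 fold changes of -0.36 ± 0.09 and -0.67 ± 0.12. Ppargc1a, its better known relative, had 62.3, 69.0, 55.1 and 61.9 CPM at 4 days against 63.7, 58.8, 67.6 and 88.9 CPM in saline (-0.16 ± 0.12, adjusted p = 0.486 by edgeR). At 11 days against 4 days it was higher by 0.37 (adjusted p = 0.00967), as was Perm1, a muscle regulator of mitochondrial genes (0.34, adjusted p = 0.011). Twnk, the mitochondrial DNA helicase, was higher than saline at 11 days (0.40, adjusted p = 0.0442). Values of Nrf1, Gabpa, Esrra and Yy1, whose motifs were searched above, did not pass at any of the 3 times against saline.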

How the data were processed

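Heart RNA of 15 mice was read from the authors' gene and transcript tables of RSEM. Per the submitters' processing notes, reads were trimmed with cutadapt 4.1, aligned to GRCm38.p6 with HISAT2 2.2.1 and quantified with RSEM 1.3.3. The authors deposited expected counts, which are estimated counts not normalized between libraries, and FPKM with effective lengths. RSEM splits reads between near-identical copies, so genes with pseudogenes are less certain, and how strand was handled is not given in the sources used here.

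For testing, these counts were rounded, 26862 genes reaching a summed count of 10 across the 15 samples were kept, and each contrast was fitted on its own groups with edgeR 4.0.16 (R 4.3.3, TMM scaling, quasi-likelihood test, Benjamini-Hochberg adjustment over all genes, threshold 0.05). SE was taken as the fold change over the root of F. CPM used TMM, and log2 CPM a prior count of 2. Genes were called lower or higher only past the threshold. DESeq2 1.42.0, limma 3.58.1, other scalings, filters and length corrections, a replicate block and leaving out each library were alternatives. The fits were checked on simulated counts.

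Genes named singly were the 5 highest and 5 lowest fold changes against saline at each time, the 2 smallest p per complex, genes past the threshold in at least 2 comparisons with saline, the paired tissue isoforms, and up to 6 genes past the threshold between times. The members and lists were chosen with earlier results of these data known. Promoters and names came from RefSeq and GENCODE M21 tables on the build of the files.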

Additional observations from a re-analysis of the deposited data

Results flagged for a closer look

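In 6 of 141 groups of 4 samples, 1 heart lay far from the other 3, where chance gives about 7. At 4 days Ndufa6 was at 74.7 CPM in replicate B, against 64.0 to 65.2 CPM in the others, and Sdha at 509.8 CPM in replicate B, against 457 to 460.2 CPM. Cox5b was at 140.5 CPM in 4-day A (others 149.8 to 151 CPM) and at 166 CPM in 11-day A (others 153 to 155 CPM). In saline, Ndufa4l2 was at 3.56 CPM in replicate A (others 2.41 to 2.48 CPM) and Atp5g2 at 13.4 CPM in replicate D (others 7.91 to 8.36 CPM).

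Among the genes named by the rule, the effect of 13 differed between times in the direct test. Of the 82 genes, 22 passed at 11 days against 4 days and 1 at 11 days against 8 days. Over all genes tested, 3.75% were higher and 6.55% lower at 11 days against 4 days. At 11 days against 8 days, 0.0596% were higher and 0.0782% lower. The rule itself took in genes past the threshold between times, so the count of 13 was partly set by the same test. Ndufb11 was named for that reason alone. At 11 days against 4 days the log2 difference was 0.48 for Ndufa1, 0.36 for Ndufb11, 0.34 for Ndufb4c, 0.40 for Ndufv1, 0.41 for Cox4i1, 0.43 for Cox6a2, 0.61 for Cox7a1 and 0.31 for Cox8b. It was 0.37 for Atp5c1, 0.34 for Atp5e and 0.36 for Atp5o, and -0.35 for Cox6a1. At 11 days against 8 days it was 0.84 for Atp5g2.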

How the results depend on the processing

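Among the 82 genes, 10 were lower at 4 days. The number was 1 with library size alone (with 2 higher), 26 with a length trend removed, 23 with all 15 samples in 1 fit, 24 with DESeq2 and 31 with limma voom, and 2 to 25 when single libraries were left out. At 8 days, where 0 were lower, it was 4 without a filter, 3 with robust quasi-likelihood, all samples or limma voom, 6 with DESeq2, and 0 to 5 with libraries left out. At 11 days, where none passed, 1 was higher with library size alone or DESeq2, 3 were lower with a length trend removed and 2 with DESeq2 or limma voom. Leaving out libraries gave 0 to 2 higher and 0 to 3 lower. Over all genes tested 914 were lower at 4 days, 293 with library size alone and 1260 with a length trend removed. At 11 days 483 of all genes were higher and 415 with library size alone, and 523 were lower and 633 with a length trend removed.

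At 8 days against 4 days, where 0 were higher, it was 2 without a filter or with DESeq2 and 0 to 2 with libraries left out. At 11 days against 4 days, 21 higher became 10 with library size alone, 11 with all samples and 33 with limma voom, and 8 to 40 with libraries left out. The 1 lower became 0 with effective length offsets and 0 to 1 with libraries left out. At 11 days against 8 days, 1 higher became 0 with library size alone, filterByExpr, effective length offsets, a length trend removed, all samples or limma voom, 4 without a filter, 10 with DESeq2, and 0 to 2 with libraries left out. Over the 4 groups 14 became 2 with library size alone, 23 without a filter, 24 with a length trend removed, 26 with DESeq2 or limma voom, and 3 to 30 with libraries left out. Over all genes tested 1006 were higher at 11 days against 4 days, and 317 with library size alone. At 11 days against 8 days 16 were higher, 32 with library size alone and 4 with effective length offsets or a length trend removed. Over the 4 groups 3489 changed, 2336 with library size alone and 3612 with a length trend removed. The cause was not tested.

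With the replicate letter as a block, 8 genes were lower at 4 days (Ndufv1, Ndufb2 and Sdha no longer passed), 1 was higher at 8 days against 4 days and 2 at 11 days against 8 days. Deviations of same-letter hearts at 4 days and in saline correlated at -0.29, -0.27, 0.14 and -0.05. At 8 and 4 days they correlated at -0.11, 0.17 and 0.25. In no comparison was every same-letter correlation over 0.1, so the samples were not treated as pairs.

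The spread of the saline hearts (SD 0.21 of the mean log2 level) limits what falls of this size can be detected.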
